A study of Rattus norvegicus with 12 samples.

Results

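The muscle-type nicotinic acetylcholine receptor and the proteins that gather it under a nerve ending were followed in neuron-enriched cultures of rat cerebellum. The genes were Chrna1, Chrnb1, Chrnd, Chrng and Chrne, which encode the 5 receptor subunits, and Agrn, Musk, Dok7 and Rapsn, which encode 4 proteins of the clustering pathway. A probe was a member where the gene name in the array files equalled one of these symbols, which gave 10 probes of 9 genes out of 30367 probes on the array. Agrn had 2 probes and every other gene had 1.

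The cultures came from cerebella of Sprague-Dawley rats 1 day old. Control cultures were given the solvent alone, dimethyl sulfoxide at 0.001%, and ACE cultures were given 1 µM acetamiprid, a neonicotinoid insecticide, in the same amount of solvent, with 6 arrays in each group. Exposure began on day 2 and RNA was taken at 16 days in vitro. Per the methods, each of the 6 replicates was a separate culture experiment, and its cultures were made from cells pooled over the neonates of 1 litter, so the control and the ACE array with the same replicate number formed a pair.

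At the adult endplate, the contact between motor nerve and skeletal muscle, the receptor is a ring of α1, β1, δ and ε subunits around a cation channel. Fetal and denervated muscle carries the γ subunit in place of ε. Agrin released by the nerve binds LRP4 and so activates the receptor kinase MuSK. Dok-7 binds MuSK inside the cell and is needed for its activity, and rapsyn holds the receptors together in clusters. In developing muscle, the subunit genes are switched on by myogenic transcription factors such as MyoD and myogenin, which bind E-boxes (the letters CANNTG). Agrin is also made by neurons and glia of the brain.

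The cultures were mixed. Markers of granule cells (5 of 5 genes), Purkinje cells (5 of 5), astrocytes (5 of 5), oligodendrocytes and Schwann cells (5 of 5) and microglia (4 of 4) were well above background on all 12 arrays, as were 5 of 6 pan-neuronal markers. Here, well above background is a mark that the scanner software gave to each spot. Of 26 skeletal muscle genes on the array, 15 were well above background on all 12 arrays and 1 was on none. Of 4 motor neuron genes, Slc18a3 was well above background on all 12 arrays and Isl1 on none. In such mixed RNA, fewer cells of a type and less RNA per cell cannot be told apart. The 75th percentile of the signal ranged from 1803 to 4384 intensity units over the arrays, and 75.4 to 91.0% of gene spots were well above background. Control RNA was always at place 1 of a slide and its ACE partner at place 3, so place and exposure cannot be told apart.

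The probes that carried the results are printed here to show which stretch of each transcript was read. Capitals mark the longest run of bases that a probe shared with a probe of any other gene on the array. Positions on the rn4 build are those of the array files. The 30-base stretch of the Chrna1 probe (chr3:56087901-56087960, minus strand) covers its bases 31 to 60, and that of the Chrng probe (chr9:86018133-86018192, plus strand) its bases 28 to 57. The probes of Chrnd (chr9:86003618-86003677, plus strand), Chrne (chr10:57497308-57497367, minus strand), Dok7 (chr14:81309173-81309232, minus strand) and Agrn A_64_P025069 (chr5:173001097-173001156, minus strand) are given whole, and the second Agrn probe, A_64_P082197 (chr5:172999463-172999522, minus strand), by its bases 1 to 30.
Chrna1: agtgagtcctcggGCTGGAGAGATGGCTCA
Chrng: attcttgggAGAAGATAGAGGAataaagga
Chrnd: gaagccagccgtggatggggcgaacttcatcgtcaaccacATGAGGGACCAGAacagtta
Chrne: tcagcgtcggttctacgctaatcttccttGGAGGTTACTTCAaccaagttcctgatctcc
Dok7: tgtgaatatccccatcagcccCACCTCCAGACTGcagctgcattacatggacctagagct
Agrn A_64_P025069: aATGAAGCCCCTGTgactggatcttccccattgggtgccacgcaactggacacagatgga
Agrn A_64_P082197: tgcttcgGTGATCAAGGCTAgagggaactg

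The shared run of the Chrna1 probe was 17 bases long and lay at its end. It recurred in 2 probes of other genes, those of LOC687071 and Rapgef6. Only probes of the array were searched, so other transcripts that hold these bases were not counted. In the other 9 member probes the longest shared run was 12 or 13 bases and recurred in 1 probe of another gene. The part of such shared bases in the Chrna1 signal was not tested.

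The stretches of 250 bases before the start of Chrna1, Chrnd and Chrng are shown because each of these subunits read highest on control arrays 1 and 2 and ACE array 1. Their patterns differed beyond these arrays: ACE array 2 came next for Chrna1 (9.02), whereas Chrng was low there (5.99). They are from RefSeq on the GRCr8 build, written in the direction of the gene, with E-boxes in capitals: Chrna1 at chr3:78877354-78877603 on the minus strand, Chrnd at chr9:95310066-95310315 and Chrng at chr9:95325734-95325983 on the plus strand.
Chrna1: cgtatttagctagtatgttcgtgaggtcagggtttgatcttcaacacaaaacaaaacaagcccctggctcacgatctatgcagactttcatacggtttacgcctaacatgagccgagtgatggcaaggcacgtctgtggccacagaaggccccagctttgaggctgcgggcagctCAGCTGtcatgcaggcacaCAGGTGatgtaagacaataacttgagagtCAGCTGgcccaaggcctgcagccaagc
Chrnd: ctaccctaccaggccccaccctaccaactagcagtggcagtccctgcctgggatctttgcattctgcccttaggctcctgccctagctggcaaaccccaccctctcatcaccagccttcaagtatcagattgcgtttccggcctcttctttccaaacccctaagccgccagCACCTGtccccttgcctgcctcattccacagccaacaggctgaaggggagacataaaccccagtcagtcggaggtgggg
Chrng: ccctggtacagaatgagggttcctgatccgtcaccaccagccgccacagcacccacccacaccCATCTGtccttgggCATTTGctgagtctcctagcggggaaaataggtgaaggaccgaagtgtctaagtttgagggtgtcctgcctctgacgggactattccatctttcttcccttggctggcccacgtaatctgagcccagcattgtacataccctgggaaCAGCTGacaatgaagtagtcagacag

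CANNTG was searched once, since it reads the same on both strands. The promoter table held 8 of the 9 members, all but Rapsn. The stretches of Chrna1, Chrnb1, Chrng and Musk each held 3 E-boxes, those of Chrnd, Chrne and Dok7 held 1, and that of Agrn held 0. Of 33469 stretches of the same length, 65.5% held at least 1 E-box and 11.55% held at least 3. The form CAGCTG, one of the CANNTG forms, occurred in Chrna1 (2 copies), Chrnb1, Chrng, Chrne and Musk (1 copy each), against 11.97% of all stretches with at least 1 copy and 1.04% with at least 2. These are matches of letters, and binding was not measured.

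Across the members, no difference between ACE and control passed the adjusted threshold, and most readings in ACE were a little lower. Of the 10 probes, 8 (7 genes) passed the filter on low values, which asked that 7 or more of the 12 arrays had a signal over their 20th percentile, and 2, Rapsn and Musk, did not. Levels are log2 processed intensities, quantile normalised over the arrays, and differences are ACE minus control within pairs. With limma, the pair as a block, and Benjamini-Hochberg adjustment over 23796 probes, 0 of the 8 probes had an adjusted p under 0.05, as for all probes tested (0%). At an unadjusted p under 0.05, 3 of 8 probes (37.5%) were lower in ACE and 0 were higher, against a background of 9.73% of all probes lower and 6.9% higher. That background split moved with the scaling, to 14.2% lower and 3.48% higher with the 75th percentile shift and to 8.13% and 8.62% in the deposited table, where the members gave the same counts of 3 and 0. The 3 probes were those of Chrna1, Dok7 and Agrn A_64_P025069. The mean difference was below 0 in 7 of 8 probes, against 52.2% of all probes, and 6 of 8 were lower in at least 5 of 6 pairs, against 21.6%. A single member probe was lower in all 6 pairs and 0 were higher in all 6, against 6.93% and 4.76% of all probes with 6 pairs. Chrng and Chrnd, 2 of the 8, were lower by at least 1.5-fold, against 1.06% of all probes lower and 1.72% in either direction. That count rested on single pairs, being 0 without pair 2 and 1 without pair 6. The median difference of the 8 probes was -0.19 on the log2 scale, where the median of all probes was -0.005 and the median size of a difference was 0.062. With 8 probes, these counts are a description of the members.

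**Figure D1:**
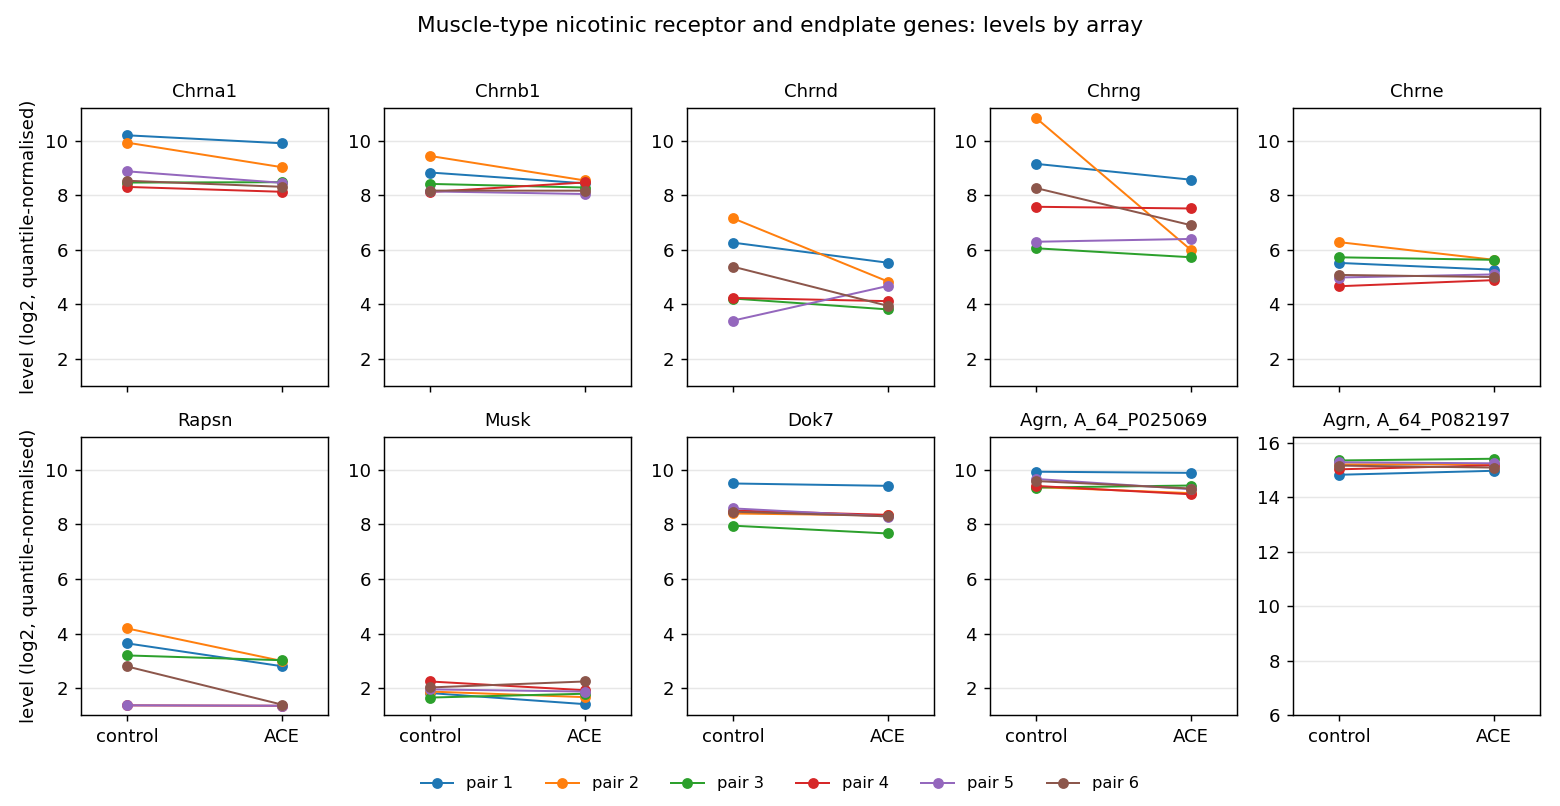
Quantile-normalised log2 level (vertical axis) of each member probe on the control and the ACE array of each pair, with 1 line per pair and 1 panel per probe. Chrng, Chrna1 and Chrnd were spread widely over the control arrays, with pairs 1 and 2 high, whereas the lines of Dok7 and Agrn A_64_P025069 ran nearly level; the vertical axis of the last panel covers a higher range.

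Chrna1 encodes the α1 subunit, which carries most of each acetylcholine binding site. Its control levels had a lowest value of 8.30, a median of 8.70 and a highest of 10.19, and its ACE levels 8.12, 8.46 and 9.90. Both arrays of pair 1 and both arrays of pair 2 were high, and the groups overlapped. The ACE reading was lower in 5 of 6 pairs, by 0.90 in pair 2 and by 0.18 to 0.42 in the others, and pair 3 differed by 0.014. On average ACE was 1.26-fold lower, a log2 difference of -0.33 ± 0.11 (SE, n = 6 pairs) with a 95% interval of -0.61 to -0.060. The limma p was 0.0239 before and 0.238 after adjustment. The exact two-sided sign-flip permutation test over the 6 pairs gave p = 0.0625, where 6 pairs cannot give less than 0.03125. Without pair 2 the mean difference was -0.22, the value nearest 0 when 1 pair was left out.

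Chrng encodes the fetal γ subunit. Control levels ran from 6.05 over a median of 7.92 to 10.82, and ACE levels from 5.72 over 6.65 to 8.56. Control arrays 1, 2 and 6 and ACE array 1 were the 4 highest. A single pair set the size of the mean: in pair 2 the control array read 10.82 and the ACE array 5.99, a 28.6-fold difference, while pair 6 differed by 2.57-fold, pair 1 by 0.58 on the log2 scale and the other 3 pairs by at most 1.26-fold. Over all 6 pairs the difference was -1.18 ± 0.67 (SE), with a 95% interval of -2.78 to 0.43 (limma adjusted p = 0.417). Without pair 2 it was -0.45.

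Chrnd encodes the δ subunit, and its gene lies next to Chrng. Its level was near the lower end of what the arrays resolve, with 4 of 6 arrays of each group well above background. Control levels ran from 3.402 over a median of 4.80 to 7.15, and ACE levels from 3.81 over 4.39 to 5.52. The highest readings were again control arrays 2 and 1, followed by ACE array 1 and control array 6. Pair 5 went the other way, with ACE higher by 1.27. The mean over the pairs was -0.62 ± 0.44 (SE; limma adjusted p = 0.499), and without pair 2 it was -0.28.

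Chrnb1 encodes the β1 subunit. Its control levels ran from 8.12 over a median of 8.29 to 9.44, and its ACE levels from 8.04 over 8.36 to 8.54. Only control arrays 1 and 2 lay above all ACE arrays, and the median was slightly higher in ACE than in control. ACE minus control averaged -0.20 ± 0.15 (SE; limma adjusted p = 0.540). Within the 3 pairs scanned in the same batch (pairs 4 to 6) the mean difference was 0.084, so the direction turned. Pair 4 alone set that sign (0.35), since pairs 5 and 6 were at -0.095 and -0.0030. Without pair 2 the mean was -0.056.

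Chrne encodes the adult ε subunit. It was well above background on 11 arrays, all but control array 4, at control levels from 4.66 over a median of 5.30 to 6.28 and ACE levels from 4.88 over 5.18 to 5.63. The ranges overlapped almost wholly, and 4 of 6 pairs were lower in ACE. The mean over all 6 pairs was -0.12 ± 0.11 (SE; limma adjusted p = 0.605), and it turned to 0.087 within pairs 4 to 6 and was -0.016 without pair 2. The fetal and the adult subunit thus had readings in the same cultures, but different probes cannot be set against each other in level.

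**Figure D2:**
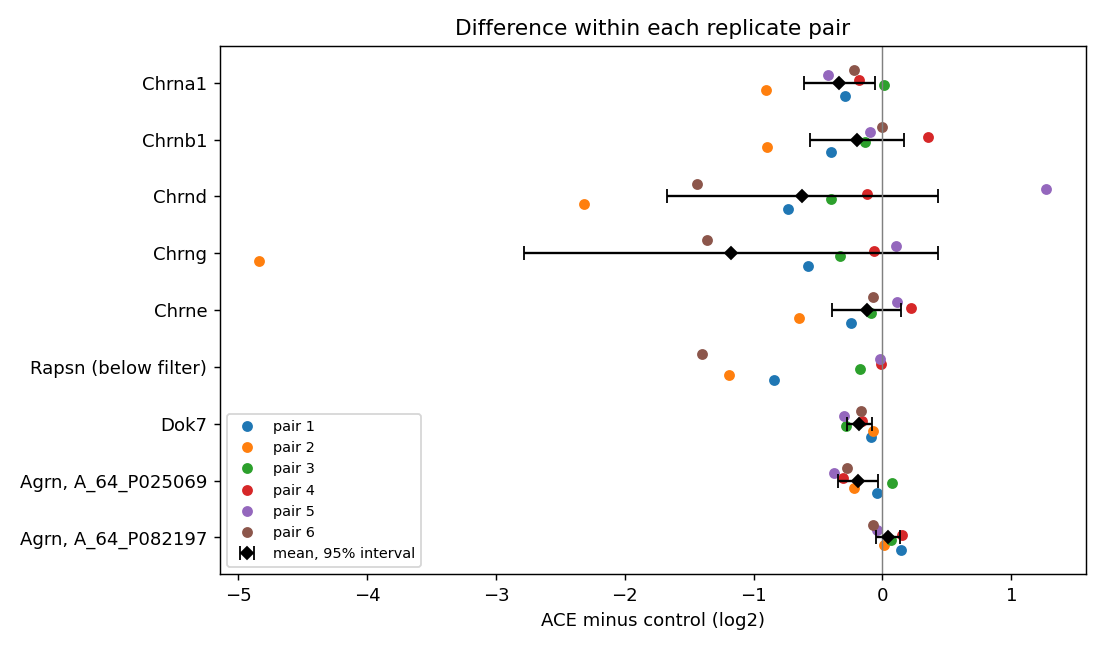
Difference of ACE minus control (log2, horizontal axis) in each of the 6 pairs for the member probes other than Musk; black diamonds and bars show the limma mean and its 95% interval for the probes that passed the filter. Pair 2 lay far to the left for Chrng (-4.84) and Chrnd (-2.32), and the 6 differences of Dok7 lay between -0.30 and -0.072.

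Of the clustering genes, Dok7 had the steadiest difference. Control levels ran from 7.95 over a median of 8.49 to 9.50, and ACE levels from 7.67 over 8.31 to 9.41. Both arrays of pair 1 were the highest of their group and both of pair 3 the lowest. The spread between replicates, each with its own litter and slide, was larger than any difference within a pair (SD of the pair means 0.53). ACE was lower in 6 of 6 pairs, by 0.072 to 0.30, whereas 6.93% of all probes with 6 pairs were lower in every pair. The level was 1.13-fold lower on average, a difference of -0.18 ± 0.040 (SE, n = 6 pairs) with a 95% interval of -0.27 to -0.082. The limma p was 0.00353 before and 0.155 after adjustment. The exact sign-flip permutation p was 0.03125, the smallest that 6 pairs can give.

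The 2 probes of Agrn, the gene of agrin, differed from each other. Probe A_64_P025069, which starts at base 5793 of the transcript, had control levels from 9.35 over a median of 9.50 to 9.93 and ACE levels from 9.10 over 9.30 to 9.89. ACE was lower in 5 of 6 pairs, and the difference was -0.19 ± 0.065 (SE) on average (limma adjusted p = 0.236). Probe A_64_P082197, which starts at base 7178, had control levels from 14.82 over 15.18 to 15.34 and ACE levels from 14.96 over 15.19 to 15.41. Its difference was 0.043 ± 0.039 (SE; limma adjusted p = 0.604), with 4 of 6 pairs higher. Over the 12 arrays the probes correlated at r = -0.56, and at 0.14 without the 2 arrays farthest from the median of the first probe. The mean over both probes was -0.074 ± 0.046 (SE), so the sign for the gene depended on the probe.

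Rapsn and Musk were at or near the background of the arrays. The Rapsn probe was well above background on control arrays 1, 2 and 3 and on ACE array 1, with control levels from 1.37 over a median of 2.99 to 4.19 and ACE levels from 1.35 over 2.10 to 3.02. The ACE reading was lower in 6 of 6 pairs, but in pairs 4 and 5 all 4 readings lay between 1.35 and 1.37. The mean difference was -0.61 and carries no limma test, since the probe did not pass the filter. With normexp background correction it was -0.062. Musk was not well above background on any array, at 1.65 to 2.24 in control and 1.41 to 2.24 in ACE, so no fold is given.

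The arrays with the highest readings of Chrng and Chrnd were also those highest in skeletal muscle genes. The mean over the 26 muscle genes was 9.23 in control array 1, 9.71 in control array 2, 7.58 in control array 6 and 8.54 in ACE array 1, and between 6.12 and 6.50 on the other 8 arrays. Mylpf, a fast skeletal myosin light chain, ran from 7.23 to 14.53 in control and from 7.12 to 12.75 in ACE. Acta1, skeletal α-actin, ran from 5.08 to 10.95 in control and from 5.61 to 9.86 in ACE. Myog, the gene of myogenin, ran from 5.72 to 8.60 in control and from 5.57 to 7.56 in ACE. Myod1 was well above background on 3 control arrays and 1 ACE array. None of these 4 probes passed the adjusted threshold where tested (Mylpf adjusted p = 0.367, Acta1 0.361, Myog 0.268, limma), and Myod1 was below the filter. Of the 26 muscle probes tested, 26 had a mean difference below 0, against 52.2% of all probes. At an unadjusted limma p under 0.05, 6 (23.1%) were lower, against 9.73% of all probes.

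**Figure D3:**
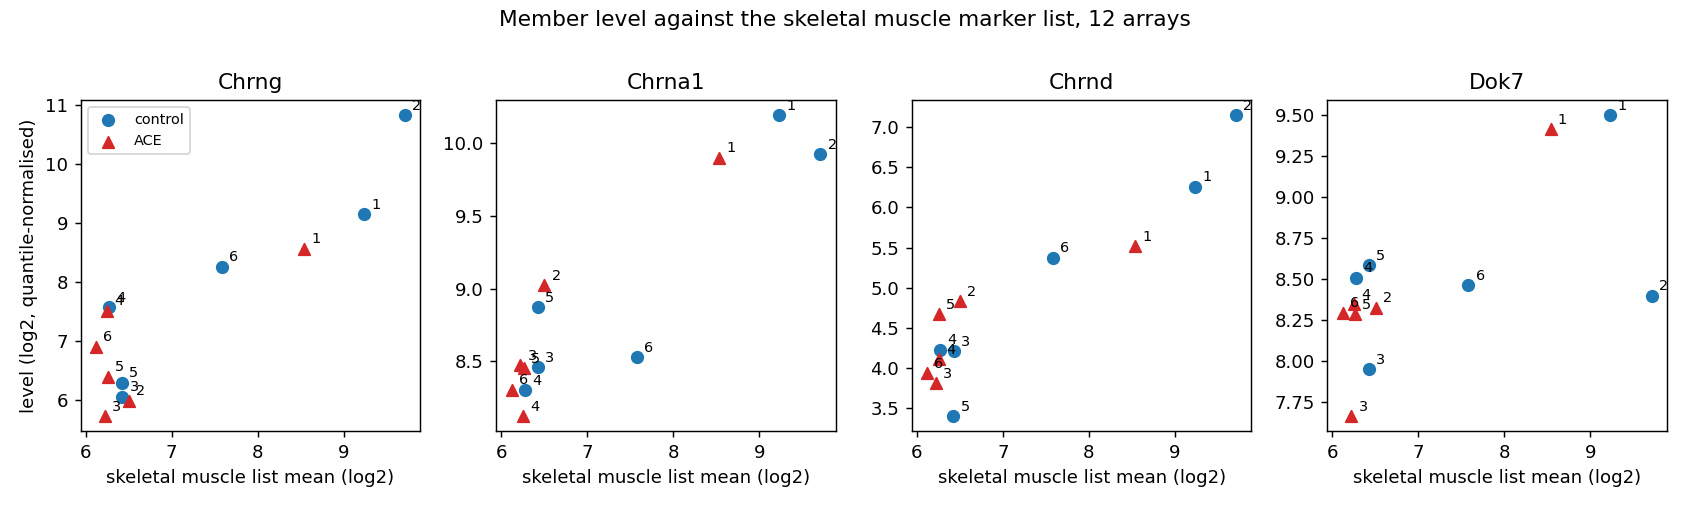
Log2 level of Chrng, Chrna1, Chrnd and Dok7 (vertical axes) against the mean log2 level of the skeletal muscle genes (horizontal axis) on the 12 arrays; circles are control, triangles ACE, and the digit is the replicate number. For Chrng and Chrnd, control arrays 1, 2 and 6 and ACE array 1 stood above all others on both axes, while Dok7 was high on the 2 arrays of replicate 1 only.

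Over the 12 arrays, which share 6 litters, the muscle mean correlated with Chrnd at r = 0.93, with Chrna1 at 0.91, with Chrng at 0.90 and with Chrnb1 at 0.79. Without the 2 arrays farthest from the median of the muscle mean, r was 0.79, 0.79, 0.72 and 0.24. For Dok7 it was 0.64 and 0.77, and for Chrne 0.56 and 0.069. Agrn A_64_P025069 gave 0.59 and 0.76, and Agrn A_64_P082197 ran the other way at -0.52 and -0.51. Rapsn, near background, gave 0.74 and 0.44. The Chrnb1 and Chrne values thus rested on 2 arrays. Within pairs, the muscle mean was lower in ACE by 3.21 in pair 2, by 1.46 in pair 6 and by 0.70 in pair 1, the pairs in which Chrng differed most. In pairs 3, 4 and 5, where the muscle mean was lower in ACE by 0.021 to 0.21, the Chrng differences were -0.33, -0.062 and 0.10, those of Chrna1 were 0.014, -0.18 and -0.42, and those of Dok7 were -0.29, -0.16 and -0.30. The part of muscle RNA in the member differences was not tested.

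Of the 4 motor neuron genes, 2 passed the filter on low values and 0 passed the adjusted threshold. Slc18a3, the vesicular acetylcholine transporter, was lower in 6 of 6 pairs, as were 6.93% of all probes with 6 pairs, with a mean difference of -0.18 (limma adjusted p = 0.147), and Chat, choline acetyltransferase, was lower in 6 of 6 pairs at -0.31 (limma adjusted p = 0.238) but was well above background on only 5 of 12 arrays. Mnx1 was well above background on 3 arrays, and 4 of its 6 pairs were lower in ACE. Isl1 was not well above background on any.

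The genes whose pattern over the 12 arrays was most like that of each member were ranked by Pearson r among 17358 probes. Among those nearest to Chrnd were Tnnt2 (cardiac-type troponin T, r = 0.95), Myl4, Ctxn3 and Jsrp1, and those nearest to Chrng were Lmod2 (r = 0.95), Tnnt2, Csrp3, Des and Rtn2. Chrna1 was nearest to the tropomyosin gene Tpm1 (r = 0.98), then Scx, Tpm2, Efcc1 and Olr237. Chrnb1 was nearest to Slamf7 (r = 0.94), Fbxl20, Eno3, Ankrd2 and Nup62cl, and Chrne to Lrrc56 (r = 0.95), Nexn, Tmem231, Isyna1 and Helz. Dok7 was nearest to Aak1 (r = 0.995), Plg, Olr278, Otof and Slc6a18. The Dok7 pair means were 9.46 in replicate 1 and 7.81 to 8.44 in the other replicates. The 2 arrays of replicate 1 also had a slide, a scan batch and a software version of their own. For Dok7, litter, slide, scan batch and software thus cannot be told apart. For Agrn the nearest were Fam134a (r = 0.98), Sun2, Adam15, Dctn2 and Bai2 for probe A_64_P025069, and Kdm2a (r = 0.96), Naa16, Gcn1l1, Flrt2 and Zfp318 for probe A_64_P082197, with no gene in common.

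Genes that act with the members at the endplate were taken from a list of 36, of which 35 were on the array with 50 probes. Of 49 probes tested, 0 passed the adjusted threshold. At an unadjusted p under 0.05, 5 were higher and 2 lower in ACE, 14.3% in all, against a background of 16.6% of all probes, so the share was near the background. The split depended on the scaling: 2 were higher and 6 lower with the 75th percentile shift, and 5 were higher and 6 lower with normexp correction. The higher ones named by the rule for naming genes were Abl1, a tyrosine kinase that acts downstream of MuSK (0.22 ± 0.060 SE), Sntb1, a syntrophin of the dystrophin complex (0.20 ± 0.070), Crkl, an adaptor that binds Dok-7 (0.13 ± 0.040), and Erbb3, a neuregulin receptor (0.13 ± 0.050). The lower ones were Cav3, the muscle caveolin (-0.30 ± 0.11), and Lamb2, the laminin β2 chain of the synaptic basal lamina (-0.20 ± 0.077). These 6 probes kept their sign under each of the scalings tried, although 3 of the 4 higher ones (Abl1, Sntb1 and Erbb3) were no longer past the unadjusted threshold with the 75th percentile shift, and Crkl was not with normexp correction. Their limma adjusted p-values ranged from 0.187 for Abl1 to 0.282 for Erbb3. The named Abl1 probe was A_64_P057603. The other Abl1 probes, A_64_P057606 and A_64_P107732, read -0.060 and -0.0077, so the sign for Abl1 depended on the probe. The median difference over the 49 probes was 0.0097.

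The neuronal nicotinic subunits, which share the receptor's architecture but are not part of the muscle type, gave a comparison. Of 11 probes, 8 were tested. At an unadjusted p under 0.05, 1 was lower (12.5%, against 9.73% of all probes) and 0 were higher (against 6.9%). The lower one was Chrnb4, lower in 6 of 6 pairs with a difference of -0.20 ± 0.055 (SE, limma adjusted p = 0.193). Of the 11 genes, 1 (Chrnb4) was well above background on all 12 arrays. Over the 8 tested probes, most of them at low signal, the median difference was 0.062, against -0.19 for the muscle-type and endplate probes. The difference between these medians was not tested.

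**Figure D4:**
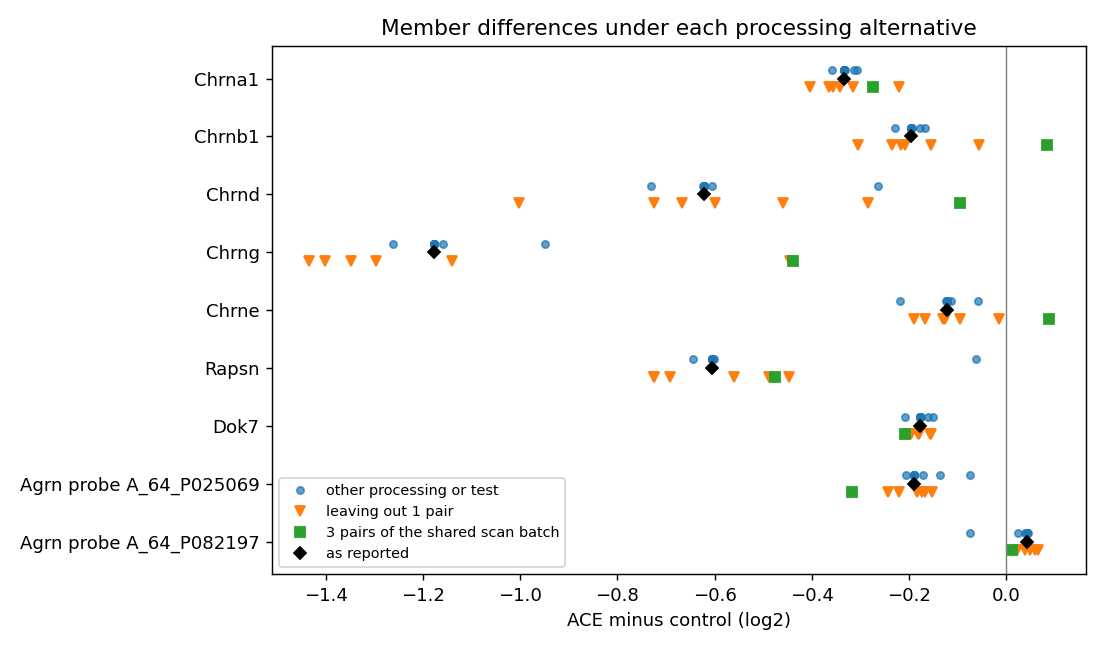
Mean difference of ACE minus control (log2, horizontal axis) for the member probes other than Musk, under each alternative normalisation, filter, flag rule or test (blue), with 1 pair left out (orange), within the 3 pairs of the shared scan batch (green) and as reported (black). Chrnb1 and Chrne crossed 0 within the scan batch, and Chrna1, Chrnb1, Chrnd, Chrng and Chrne moved toward 0 when pair 2 was left out.

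For Dok7 all alternatives lay between -0.21 and -0.15 and for Chrna1 between -0.40 and -0.22. The values of Agrn A_64_P025069 lay between -0.32 and -0.074, with the end nearest 0 given by averaging it with the other Agrn probe. None of the 9 member probes with differences had an adjusted p under 0.05 in any alternative, the lowest being 0.101 for Dok7 with normexp background correction. The exact sign-flip test could hardly give such a value, since 6 pairs cannot give a p under 0.03125 before adjustment.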

How the data were processed

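RNA of 12 cultures (6 control, 6 ACE) was measured on 1-colour Agilent arrays. Per the file headers, spot intensity was extracted by the authors using Feature Extraction software of Agilent (11.0.1.1 for replicate 1 and 11.5.1.1 for the rest), background-subtracted and not scaled across arrays. A log2 matrix, quantile normalised and centred per probe, was deposited too. It correlated with the scanner values at 0.997 to 0.999 per array and served as an alternative. Here, control spots were left out, spots marked as outliers were set to missing, log2 intensities were quantile normalised and spots of a probe averaged. As in the methods, probes above the 20th percentile of an array in most samples (7 or more of 12) were kept. At least 4 complete pairs were also required here, which left 23796 of 30367 probes. The test was limma 3.58.1 in R 4.3.3 with the replicate number as a block (lmFit, eBayes, two-sided) and Benjamini-Hochberg adjustment at 0.05. The pairing comes from the shared litter. Deviations from the group means correlated at 0.449 to 0.912 for arrays with the same number and at -0.44 to 0.39 for others. The number of arrays limits the precision.

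Gene names were those of the newest annotation in the array files. Partners were named where the unadjusted p was under 0.05 and the higher group had at least 3 arrays well above background (up to 4 per direction), and 5 genes were ranked per member for likeness over probes well above background on at least 6 arrays. A single gene so ranked is not reported here. The members and lists were chosen with earlier results of these data known. Other settings tried were a 75th percentile shift, normexp correction (offset 50) with quantile normalisation, the deposited table, no block, a random block, other filters, outlier spots kept, 1 pair left out, pairs 4 to 6 only, exact signed-rank and sign-flip tests and averaging the probes of a gene. The test was checked on simulated data. Data.table in version 1.17.8 read the files, and plots were made in matplotlib 3.10.9 under Python 3.11.15.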

Additional observations from a re-analysis of the deposited data

Results flagged for a closer look

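The mean over the skeletal muscle genes, which moved with the Chrng, Chrnd and Chrna1 readings, was 8.54 on ACE array 1, far above the other 5 ACE arrays (6.12 to 6.50). Its gap to the nearest of them was 0.842 of the range of the group, over Dixon's limit for 6 arrays. Among 26 groups of 6 arrays looked at this way (10 member probes and 3 lists, in control and in ACE), it was the only value set apart, and chance alone sets apart about 1 in 20 groups. In the control group the high arrays 1 and 2 lay near each other, and no member probe had a value set apart.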

How the results depend on the processing

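Over 17 alternatives, 149 of 152 member differences kept their direction and, where tested, their side of the adjusted threshold. The exceptions turned direction: Chrnb1 (0.0838) and Chrne (0.0866) within pairs 4 to 6, and Agrn probe A_64_P082197 when averaged with the other Agrn probe (-0.0742). A change of block, filter or test alone leaves a mean difference as it is, so no direction could turn there. Averaging likewise left the genes with 1 probe as they were. Rapsn had no adjusted p as reported. Its 16 values counted as kept where they moved by less than the SD of its pair differences. The count of member probes, partner probes and neuronal subunit probes past the adjusted threshold was 0 throughout. The exact signed-rank test could hardly give otherwise, since its p over 6 pairs cannot fall under 0.03125 before adjustment. The replicate block decided the unadjusted counts: with no replicate block, 0 member, 0 partner and 0 neuronal subunit probes were past 0.05, as were 0.34% of all probes in place of 16.6%. With the exact signed-rank test, 1 member and 2 partner probes passed, against 11.6% of all probes. With normexp correction 11 partner and 2 neuronal subunit probes did, against 18.1% of all probes. Leaving out 1 pair gave 2 to 3 member probes (2 without replicate 2, 4, 5 or 6), 3 to 10 partner probes (3 without replicate 2, 4 without replicate 4 or 5), and 1 neuronal subunit probe each time. The share of all probes past 0.05 then ran from 11.8% (without replicate 2) to 17.5% (without replicate 3). Member probes with the same direction in all pairs numbered 2 with the 75th percentile shift, 2 with no filter on low values, 3 within pairs 4 to 6, and 1 to 3 when 1 pair was left out. Fewer pairs share a direction more easily, and the share of all probes was not counted in these settings. Leaving out 1 pair moved Chrng between -1.43 and -0.45 and Chrnd between -1.001 and -0.28, with the value nearest 0 without replicate 2 in both. Chrnd, Rapsn and Musk could not be tested under the filter for signal well above background. Low signal limits what can be said of Chrnd and Rapsn.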

Other observations

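Among the endplate partners, the largest mean difference belonged to a probe of Erbb2, a neuregulin receptor subunit, which was named after its values were seen. It read 1.43 higher in ACE, with an SD of the pair differences of 1.81 and a limma adjusted p of 0.329. Pairs 1 to 3 differed by 0.11, -0.077 and 0.16 and pairs 4 to 6, the shared scan batch, by 1.24, 4.42 and 2.75, and without pair 5 the mean was 0.84. The probe was well above background on 3 of 6 control and 5 of 6 ACE arrays. The other 2 Erbb2 probes read 0.021 and 0.028. The sodium channel gene of skeletal muscle, Scn4a, chosen in the same way, had the lowest mean difference of the list, -0.34 (SD of the pair differences 0.95, limma adjusted p = 0.633), and pair 2 set its sign, since the mean was 0.032 without that pair.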
